A study of Drosophila melanogaster with 2 samples.

Results

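The genes described are the protein-coding genes of chromosome 4 of Drosophila melanogaster, taken from the Ensembl annotation of the dm6 assembly. All 80 were taken except RpS3A, ATPsynbeta, eIF4G1, MED26, pan, lgs and pho, which leaves 73 of the 13945 protein-coding genes on 2L, 2R, 3L, 3R, 4 and X. Chromatin came from whole embryos aged 0 to 24 h, in 2 biological replicates, of transgenic flies that carried an eGFP fusion of sunspot (ssp). The replicates form 1 group, with no untagged or other condition among the samples, and it was precipitated with an antibody against GFP. All stages and tissues of embryogenesis are pooled in each replicate, so a peak cannot be placed in a cell type. The labels name a control library, which is not analysed here.

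Sunspot is a BED finger protein described in Drosophila as an activator of the E2F1 and PCNA genes. Its described partner is Armadillo, the effector of Wingless signalling, which moves it out of the nucleus. Chromosome 4, the dot chromosome, is small and rich in transposable elements, and it is coated by the heterochromatin protein HP1a and by a binding protein of its own, POF. Its genes are nevertheless expressed, and they mix widely used genes with regulators of development that are active in few tissues.

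The values are peak signals, the number that the authors' peak caller gave to each peak, in a combined list made from both replicates and in a list for each replicate. A gene was given a peak where a summit lay within 500 bp of one of its transcription start sites (TSS), and its highest peak is quoted. Candidates are entries of the ranked lists from which the peaks were taken at an irreproducible discovery rate (IDR) of 0.01. Signals rank peaks within a list, and no scaling between lists is stated. No read counts are in the lists, so the depth is unknown.

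The windows under the 6 strongest summits at these genes show the DNA that carried most signal, that of Taf3 shows a weaker peak with a DNA replication-related element (DRE, TATCGATA), and those of ci, toy and sv show promoters with no peak. Each window runs from 50 bp before to 50 bp after the summit, on the strand of the gene, in the Release 6 (dm6) genome from RefSeq. Without a peak it is centred 75 bp upstream of the main TSS, the median summit position of the genes with a peak. Capitals mark CGATA on either strand, a core sequence of the insulator protein BEAF-32 that is also part of the DRE.
Gyf, chr4:867065-867165, minus strand: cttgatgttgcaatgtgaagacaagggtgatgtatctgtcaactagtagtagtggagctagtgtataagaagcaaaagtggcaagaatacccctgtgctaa
apolpp and Zyx, chr4:1060922-1061022, plus strand: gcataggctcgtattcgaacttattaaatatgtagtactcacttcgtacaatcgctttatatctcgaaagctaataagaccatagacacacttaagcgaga
Hcf, chr4:359819-359919, plus strand: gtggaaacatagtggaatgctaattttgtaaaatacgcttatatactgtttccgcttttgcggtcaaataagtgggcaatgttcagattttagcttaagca
Crk, chr4:210149-210249, plus strand: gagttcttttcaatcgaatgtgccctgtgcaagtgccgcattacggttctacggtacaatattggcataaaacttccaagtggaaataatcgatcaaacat
PlexB, chr4:43782-43882, minus strand: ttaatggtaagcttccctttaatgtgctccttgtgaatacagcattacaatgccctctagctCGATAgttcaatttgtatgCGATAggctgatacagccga
Rnf11, chr4:314808-314908, plus strand: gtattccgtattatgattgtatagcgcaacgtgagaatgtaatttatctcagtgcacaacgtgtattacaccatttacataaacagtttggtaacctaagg
Taf3, chr4:466816-466916, minus strand: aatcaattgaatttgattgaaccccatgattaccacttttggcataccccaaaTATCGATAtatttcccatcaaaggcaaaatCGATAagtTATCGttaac
ci, chr4:56356-56456, minus strand, no peak: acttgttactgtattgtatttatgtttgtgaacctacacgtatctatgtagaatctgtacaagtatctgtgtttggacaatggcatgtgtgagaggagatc
toy, chr4:989600-989700, plus strand, no peak: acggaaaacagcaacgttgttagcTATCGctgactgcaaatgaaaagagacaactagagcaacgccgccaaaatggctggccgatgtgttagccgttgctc
sv, chr4:1088673-1088773, plus strand, no peak: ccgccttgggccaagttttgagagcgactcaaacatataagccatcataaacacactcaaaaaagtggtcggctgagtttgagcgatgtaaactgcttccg
PlexB was the only one of the 6 strongest windows with CGATA, which it held at 2 places. Taf3 held it at 4 places, 2 of them overlapping in the DRE, and toy, which had no peak, at 1.

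An ssp peak was found at 38 of the chromosome 4 genes, and most of those peaks were strong. A combined peak lay at 38 of the 73 genes (52.1%, Wilson 95% interval 40.8 to 63.1%), beside 21.4% of all protein-coding genes. The interval covers counting error only, as if the genes were independent draws. They are the whole chromosome less the genes left out, not a sample, and neighbouring genes that share a peak are not independent. It is thus no test against the 21.4%. Among the 38 genes the signal ran from 85.0 to 4621 with a median of 1915 (quartiles 986 and 2762). In all, 27 genes had a peak with a signal above 1000, 8 one from 200 to 1000 and 3 one below 200. The 38 genes used 35 distinct highest peaks, because Zyx and apolpp, Dyrk3 and Cadps, and CG46466 and Slip1 shared theirs. CG11076 also shared its peak, with ATPsynbeta, which is one of the genes left out. No test of the 73 genes against others was made, since the data hold 1 group and the genes were chosen with results of these data known.

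**Figure D1:**
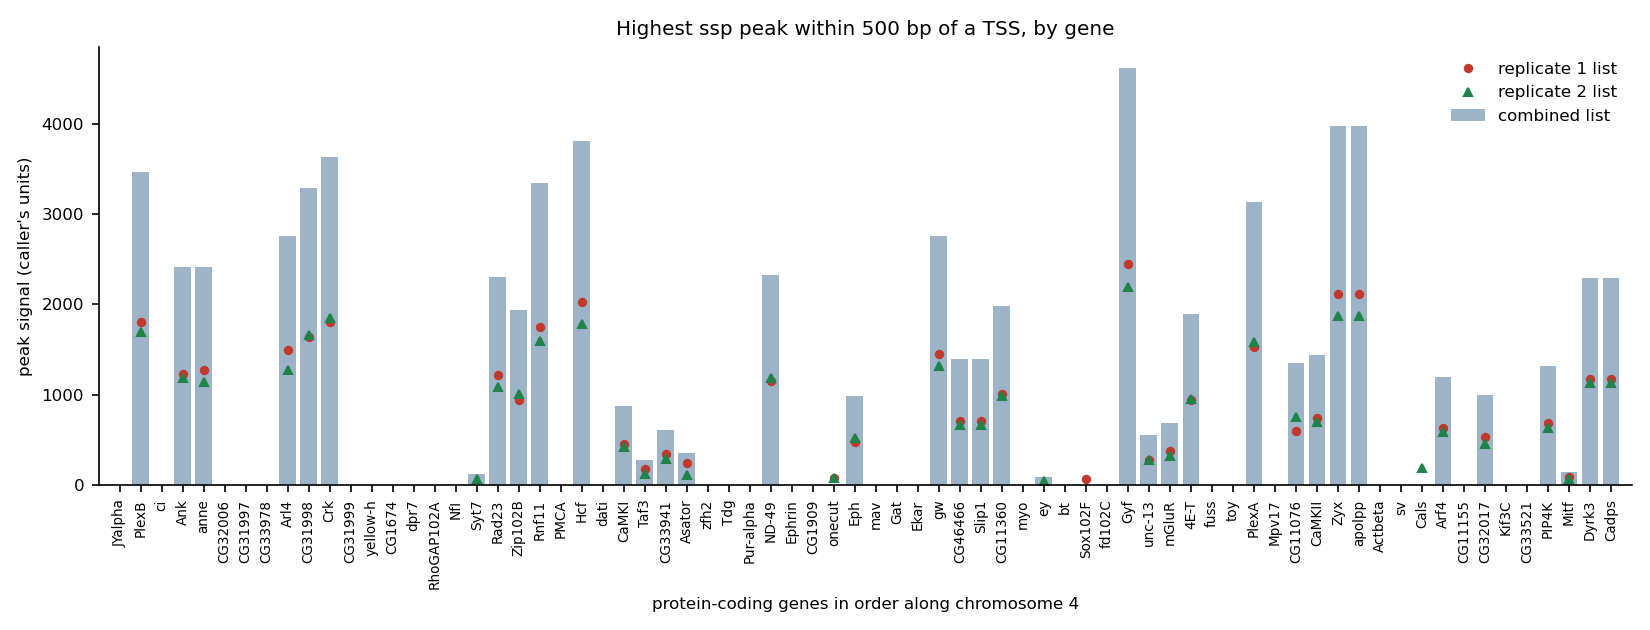
Signal of the highest peak within 500 bp of a TSS (y axis, in the caller's units) for 72 of the 73 chromosome 4 genes in their order along the chromosome (x axis), as bars for the combined list, circles for replicate 1 and triangles for replicate 2. Genes with bars above 1000 stand beside genes with no bar, and onecut, Sox102F and Cals have a replicate point without a bar.

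Each replicate had peaks at a similar number of these genes. Replicate 1 had a peak at 38 of the 73 genes (52.1%, beside 18.0% of all protein-coding genes) with a median signal of 942, and replicate 2 had one at 40 (54.8%, beside 17.3%) with a median of 853. Of the 40 distinct combined summits within 500 bp of a TSS of these genes, 37 lay in peaks that overlapped a peak of both replicates, 1 overlapped replicate 1 only and 2 replicate 2 only. Signals of replicate 2 were lower than those of replicate 1 at 27 of the 36 genes with a value in all 3 lists, with a median log2 ratio of -0.10 (SD 0.22 across genes). Over all 2086 protein-coding genes with such values the median log2 ratio was -0.19 (SD 0.32), so the offset was not particular to chromosome 4. Since no common scale is stated, the ratio may also reflect how each list was scaled. Asator, a tau tubulin kinase gene, had the most unequal signals, 244 in replicate 1 and 114 in replicate 2, a log2 ratio of -1.10.

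The 2 genes listed for RNA silencing and translation control and the 1 for protein turnover all had strong peaks, beside a peak at 52.1% of the 73 genes and 21.4% of all protein-coding genes. Gyf (FBgn0039936, 4 from 853557 to 867025), whose GYF-domain protein acts in translational repression, had the highest signal of the chromosome, 4621 in the combined list, 2444 in replicate 1 and 2199 in replicate 2. This peak ranked 4 of 4948 in the combined list, and its summit lay 90 bp upstream of the TSS. gw, which encodes the GW182 protein of microRNA silencing, followed with 2763, with 1456 in replicate 1 and 1319 in replicate 2. Rad23, a carrier of ubiquitinated proteins to the proteasome, had 2309, with 1219 and 1090 in the replicates. 4E-T, an eIF4E-binding protein of P bodies that was in none of the role lists, had 1893, with 940 and 955 in the replicates.

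Of the 8 kinase, adaptor and GTPase genes, 7 had a peak (87.5%, beside 52.1% of the 73 genes and 21.4% of all protein-coding genes). The adaptor gene Crk (FBgn0024811) led with 3637, against 1805 in replicate 1 and 1848 in replicate 2, with its summit 25 bp upstream of the TSS. The small GTPase gene Arl4 had 2760, with 1501 and 1276 in the replicates. The kinase gene Dyrk3 had 2288, from the summit it shares with Cadps on the opposite strand. Slip1 (1400), the phosphoinositide kinase gene PIP4K (1324), the calcium and calmodulin-dependent kinase gene CaMKI (874) and Asator (359) were weaker. Slip1 had its summit 401 bp upstream of its TSS but 96 bp upstream of that of CG46466, its divergent neighbour. RhoGAP102A was the member with no peak and had no candidate either. CaMKII, outside the list, had a peak of 1437 in an intron, 86 bp upstream of a TSS other than its main one. A CaMKII peak nearer the main TSS had 96.3 and overlapped replicate 1 only.

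Of the 9 genes for ligands and receptors, 4 had a peak (44.4%, beside 52.1% of the 73 genes and 21.4% of all protein-coding genes), and all 4 encode receptors. The semaphorin receptor genes PlexB (FBgn0025740) and PlexA (FBgn0025741) had signals of 3470 and 3132. PlexB had 1802 in replicate 1 and 1697 in replicate 2, and PlexA had 1531 and 1587. The receptor tyrosine kinase gene Eph had 983, with 479 and 517 in the replicates, and the metabotropic glutamate receptor gene mGluR had 685, with 377 and 321. The ligand genes Ephrin, Actbeta, mav and myo, of which the last 3 encode TGF-beta family ligands, had no peak and no candidate. The same held for the kainate receptor gene Ekar. Ephrin and its receptor gene Eph thus differed, with no entry at the first and a peak in every list at the second.

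Of the 7 genes of mitochondria, lipid, ion transport and metabolism, 3 had a peak (42.9%, beside 52.1% of the 73 genes and 21.4% of all protein-coding genes). apolpp (FBgn0087002), which encodes the precursor of the lipid carrier apolipophorin, had 3978 in the combined list, 2113 in replicate 1 and 1877 in replicate 2. The summit lay 3 bp downstream of its TSS, and 54 bp upstream of a TSS of Zyx on the other strand. ND-49, a subunit of respiratory complex I, had 2331, with 1151 and 1187 in the replicates, and the zinc transporter gene Zip102B had 1937, with 945 and 1006. The ND-49 summit lay in an intron, 98 bp upstream of a TSS other than its main one. The sodium pump gene JYalpha, the calcium pump gene PMCA, yellow-h and Tdg, which encodes thymine DNA glycosylase and had been put in this list under its older name Thd1, had none. Of these, JYalpha had a candidate, with a signal of 18.3 and an IDR of 0.885.

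Among 4 muscle and cytoskeleton genes 2 had a peak and among 5 genes of synapses and vesicle release 3 did, beside 52.1% of the 73 genes and 21.4% of all protein-coding genes. Zyx, the zyxin gene of focal adhesions, had the signal of 3978 it shares with apolpp, and the ankyrin gene Ank had 2416, with 1233 and 1185 in the replicates. The summit at Ank lay 40 bp downstream of the nearest TSS, in a 5' UTR. bt, the gene of the giant muscle protein projectin, had no combined peak. Nor did the calsyntenin gene Cals, which counts here only because it had been put in this list. Of the synaptic genes, Cadps, needed for priming of dense-core vesicles, had 2288 (1170 and 1129 in the replicates), unc-13 558 and Syt7 126, while the GABA transporter gene Gat and the kinesin gene Kif3C had none. The Syt7 peak was absent from replicate 1 and had 61.6 in replicate 2, and its summit lay 421 bp upstream of the TSS inside a copy of a transposable element.

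Of the 13 transcription factor genes, 3 had a combined peak (23.1%, near the 21.4% of all protein-coding genes and beside 52.1% of the 73 genes), and 1 of the 3 was strong. Hcf (FBgn0039904), the host cell factor gene, whose product is a cofactor of chromatin-modifying complexes, had 3807, with 2028 in replicate 1 and 1779 in replicate 2. Mitf, a regulator of lysosomal genes, had 147, with 87.9 and 64.1 in the replicates. ey, the Pax6 gene of eye development, had 85.0, with no peak in replicate 1 and 45.3 in replicate 2, the lowest signal of the 38 genes. A stronger peak of 1144 lay 749 bp upstream of the ey TSS, outside the window. The Hedgehog effector gene ci, the Pax genes toy and sv, zfh2, dati, onecut, fd102C, Sox102F, NfI and Pur-alpha had no combined peak and no combined candidate.

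**Figure D2:**
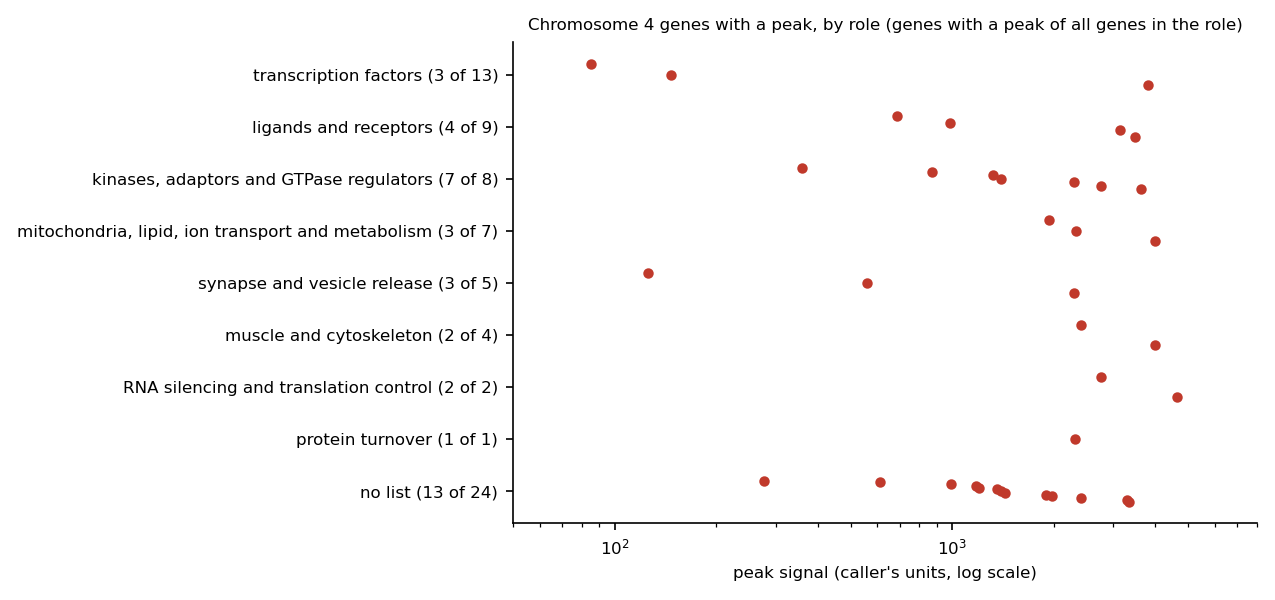
Combined signal (x axis, log scale, caller's units) of each chromosome 4 gene with a peak, by role list (y axis, with the number of genes with a peak of all genes in the list). Of the 3 transcription factor genes with a peak, Mitf and ey lie below 200 and Hcf lies at 3807.

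Another 24 genes were in none of these lists, and 13 of them had a peak (54.2%, close to the 52.1% of the 73 genes and beside 21.4% of all protein-coding genes). Rnf11, a RING finger gene, had 3342, with 1751 in replicate 1 and 1599 in replicate 2, and CG31998 had 3290, with 1642 and 1661. anne had 2412, with 1279 and 1137 in the replicates. Others above 1000 included CG11360 (1980), 4E-T, CaMKII, CG46466 (1400), CG11076 (1353) and the GTPase gene Arf4 (1200). CG32017 had 993, CG33941 610 and Taf3, which encodes a subunit of the general transcription factor TFIID, 278. The 11 without a peak were CG11155, CG1674, CG1909, CG31997, CG31999, CG32006, CG33521, CG33978, Mpv17, dpr7 and fuss.

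Most chromosome 4 genes without a peak had no entry at all. Of the 35, 32 had no combined candidate within 500 bp of a TSS, and 29 had none in the ranked lists of the replicates either. The 3 with a candidate were Kif3C (signal 57.3, IDR 0.0976), Mpv17 (45.3, IDR 0.787) and JYalpha. Of the 41 genes with a candidate, 38 (92.7%) had a peak, beside 28.8% of all protein-coding genes with a candidate. On 2L, 2R, 3L, 3R and X, 7374 of 10924 genes without a peak (67.5%) had a candidate, and among the 747 pericentric genes without one, those in the 5 Mb at the centromeric end of 2L, 3L, 3R or X, it was 52.7%. Candidates that failed the threshold were thus rarer near the TSS of chromosome 4 genes (8.57% of genes without a peak), and the part of this in the share with a peak was not tested.

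Of the genes without a combined peak, 3 had a peak in a replicate list. onecut had one in both, with a signal of 75.2 in replicate 1 (IDR 0.000726) and 72.4 in replicate 2 (IDR 0.00198), at 77 and 2 bp downstream of a TSS. The combined list had no entry overlapping them. Sox102F had 68.4 in replicate 1 only and Cals 187 in replicate 2 only. All 3 signals are low beside the replicate medians of the genes with a peak.

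**Figure D3:**
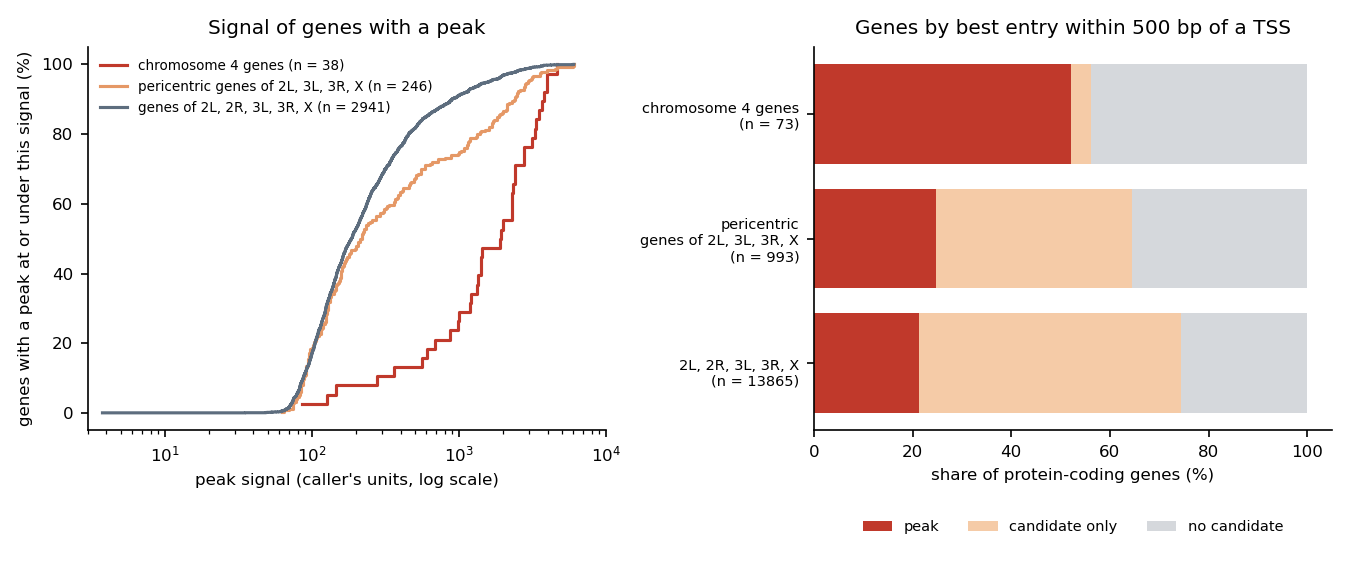
Left, cumulative share (y axis, %) of genes with a combined peak at or under each signal (x axis, log scale, caller's units) for chromosome 4, for pericentric genes of 2L, 3L, 3R and X and for all genes of the other arms. Right, share of genes (x axis, %) with a peak, with a candidate only and with neither. The chromosome 4 curve lies to the right of the others, and its candidate-only segment is the shortest.

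The signals at chromosome 4 genes lay above those of most bound genes elsewhere. The median over the 38 genes was 1915, beside 215 for 246 pericentric genes with a peak and 185 for the 2941 genes with a peak on 2L, 2R, 3L, 3R and X, which include the pericentric ones. Above 1000 lay 71.1%, 25.6% and 8.94% of these genes. Taking each summit once, the 40 at chromosome 4 genes had a median signal of 1377 (quartiles 597 and 2502) and the 2292 promoter summits of the other arms one of 164 (105 and 343), a difference of 1213. With replicate 2 alone the difference was 571, and with replicate 1 alone 584. Both replicates overlapped 92.5% of the chromosome 4 summits and 68.6% of the others. The pericentric share of genes with a peak was 24.8%, and that of the other arms together 21.2%. These values are set side by side with no test.

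The summits sat in a narrow band just upstream of the start. The median position at the 38 genes was 75 bp upstream of the nearest TSS of the gene (quartiles 94.5 and 54 bp upstream). The summit was upstream at 36 of the 38 (94.7%), not far from the 89.9% of genes with a peak on the other arms. From 50 to 100 bp upstream lay 23 of the 38 (60.5%), beside 19.9% of the genes with a peak on the other arms, whose median was 123 bp upstream. On the other arms 62.2% of genes with a peak had a divergent TSS within 1000 bp upstream of their main TSS, against 28.9% on chromosome 4. Many summits there thus counted for a pair of genes. When each summit was given only to its nearest TSS, 22 of 40 (55.0%) chromosome 4 summits and 22.4% of the 2292 others lay at least 50 and less than 100 bp upstream. The farthest upstream were those of Syt7, Slip1, mGluR (333 bp) and CaMKI (232 bp).

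**Figure D4:**
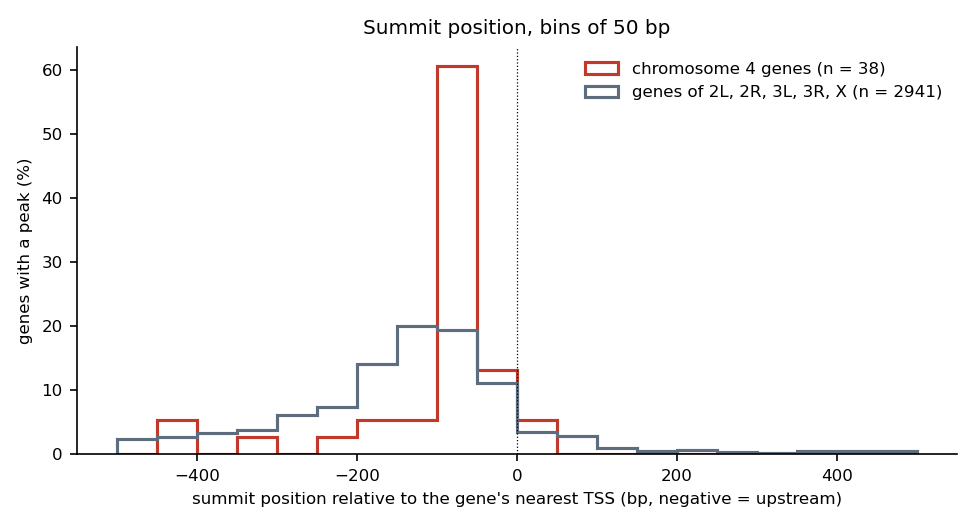
Position of the highest summit relative to the nearest TSS of the gene (x axis, bp, negative upstream, bins of 50 bp) as a share of genes with a peak (y axis, %), for chromosome 4 and for the other arms. The chromosome 4 summits pile up from 50 to 100 bp upstream, where 60.5% of them lie.

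Bound and unbound genes of chromosome 4 had overlapping ranges of length, GC content and distance to transposable elements. Median gene length was 11102 bp with a peak (n = 38) and 9332 bp without (n = 35), far above the 2156 bp of all genes on the other arms. GC content from 250 bp before to 50 bp after the main TSS had a median of 32.4% (quartiles 30.2 and 35.9%) with a peak and 35.2% (31.7 and 42.7%) without. These windows, and the distances below, are taken at the main TSS, which is not always the one with the peak. At ND-49, gw, Asator, Syt7, apolpp, ey and some other genes the highest summit lay over 500 bp from it, at another TSS. The nearest annotated copy of a transposable element lay a median of 1061 bp from the main TSS with a peak and 937 bp without, against 23950 bp on the other arms. Strand made little difference, with a peak at 16 of 32 genes on the plus strand and at 22 of 41 on the minus strand. Along the chromosome, the longest run of neighbouring genes with a peak was 4 genes, and the longest without one was 6 genes, from CG31999 to NfI. A divergent TSS lay within 1000 bp upstream of the main TSS at 11 genes with a peak (28.9%) and at 7 without (20.0%). Pairs at another TSS are not in these counts. By this measure apolpp lay 3988 bp and Cadps 1170 bp from one, although each shares its peak with a gene on the opposite strand.

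Few summits lay inside the transposable elements that surround these genes. Annotated copies cover 24.8% of chromosome 4 and 5.74% of the other arms. Of the 40 summits at chromosome 4 genes, 1 (2.50%), that of Syt7, lay inside a copy, and the median distance to the nearest was 1055 bp. On the other arms 0.175% of the promoter summits lay inside one. The main TSS, which is not always the one with the peak, lay inside a copy at 0 of 38 genes with a peak and 1 of 35 without.

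The DNA under the summits was rich in A and T, as were the promoters of these genes with or without a peak. None of the short sequences counted was in most of the windows, and longer ones were not searched for. Of 11 listed sequences, sought on both strands in 101 bp windows, the BEAF-32 core CGATA was the most frequent, at 16 of 40 chromosome 4 summits (40%), beside 26.3% of promoter summits of the other arms and 14.1% of their failing promoter candidates. In flanks 500 bp to either side of the same summits it was in 17.5% of 80 windows. The overlapping sequence ATCGAT, the middle of the DRE, was in 8 windows (20.0%, beside 274 of 2292 and 5.17%). The whole DRE, which contains both, was in 1, that of Taf3 (2.50%, beside 5.06% of promoter summits of the other arms). From 250 bp before to 50 bp after the main TSS, CGATA was in 24 of 38 genes with a peak (63.2%), 14 of 35 without (40%) and 47.5% of all protein-coding genes. At some of the 38 genes the highest peak lay at another TSS, outside this window. The E2F sequences TTTGGCGC and GGCGGGAA and GGTCACAC, the core of the promoter element called motif 1, were in 0 of the 40 windows. CTTTGAT, a core of the Wingless effector TCF, was in 1. In that order they were in 0.611%, 0.218%, 2.14% and 1.96% of promoter summits of the other arms. At such low shares 40 windows cannot show a lack of these sequences. GAGAG was in 3 of the 40 (7.5%, beside 7.37% of promoter summits of the other arms) and TATAAA in 8 (20%, beside 20.9%). The E-box CACGTG was in 1 (2.5%, beside 0.916%) and the initiator core TCAGT in 4 of the 40, beside 15.6%.

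The 6-mers TATTAA, then ATATTA, then ATAATA, followed by TTTAAA and lastly ATTATA, had the highest ratios of their share at promoter peaks to that at failing candidates, ranked on the other arms alone. At least 1 of the 5 was in 22 of the 40 chromosome 4 windows (55.0%), beside 53.2% of promoter summits and 18.2% of failing promoter candidates on the other arms. The flanks of the chromosome 4 summits held one in 58.8% of windows, a share no lower than at the summits. Median GC content was 35.1% under chromosome 4 summits, 33.7% under promoter summits of the other arms and 48.5% under the failing candidates. Over all 73 genes, bound or not, it was 33.6% from 250 bp before to 50 bp after the main TSS. The chromosome 4 summits were thus no poorer in GC than the promoters of these genes.

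**Figure D5:**
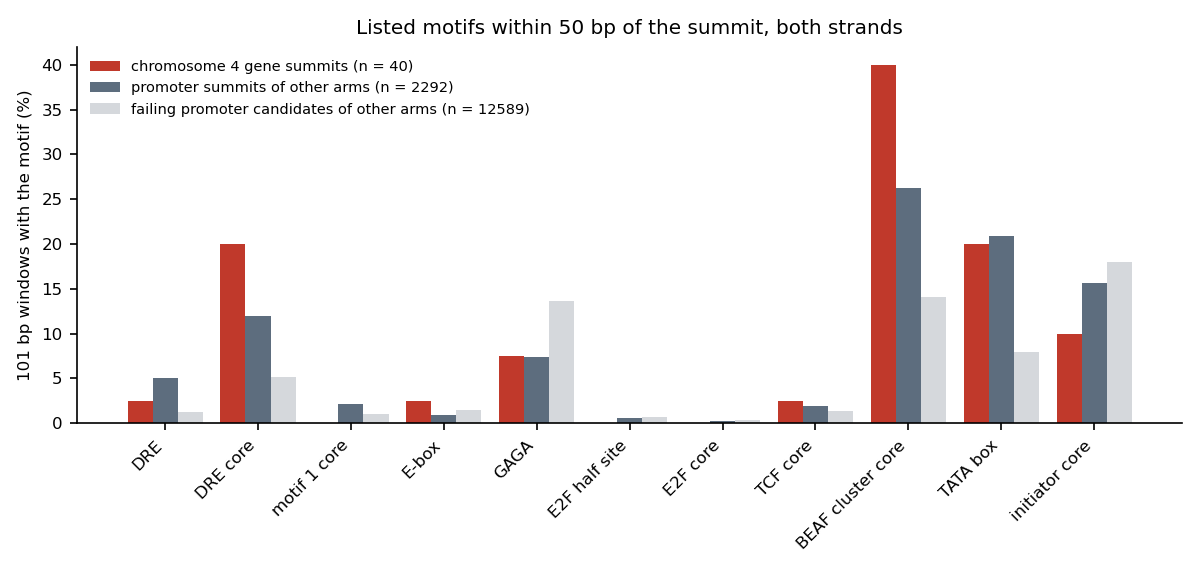
Share of 101 bp windows (y axis, %) with each of 11 listed sequences on either strand (x axis), for the 40 summits at chromosome 4 genes, 2292 promoter summits of the other arms and 12589 failing promoter candidates of the other arms. The BEAF core is highest at chromosome 4 summits, at 40%.

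At the genes for proteins that coat or modify chromosome 4, no combined peak had a signal above 272. The median over all protein-coding genes with a peak was 189. Of 11 genes in a list of such proteins and of related heterochromatin factors, all on other chromosomes, 4 (36.4%, beside 21.4% of all protein-coding genes) had a combined peak. These were HP4 with a signal of 272, the H3K9 methyltransferase gene Su(var)3-9 with 139, Su(var)3-7 with 81.7 and HP5 with 74.8. Su(var)3-7 and HP5 had no peak in replicate 1. Each of the 4 peaks also lay within 500 bp of a TSS of another protein-coding gene. Pof, which encodes POF, the HP1a gene and the methyltransferase gene egg, along with wde, G9a, ADD1 and Kdm4A, had no combined peak. wde had a peak in replicate 2 only, with a signal of 42.6.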

How the data were processed

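Chromatin immunoprecipitation and sequencing was applied to 2 biological replicates of 1 group. Per the deposited notes, the authors made ranked and IDR-thresholded peak lists on dm6, per replicate and for both together, from alignments and 1 file of unstated kind. Which caller and aligner they ran is not stated in the labels or files read here. Each deposited peak has a signal, the caller's value, with no scaling stated. The ranked lists deposited by the authors also hold −log10 of the global IDR, converted here to IDR. In the series-wide ranked lists, 16 columns with no sample name were left unused. Depth, and so counting precision, is unknown.

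Summits, converted to count from 1, were matched to every TSS of Ensembl release 115. All list positions lay within the RefSeq Release 6 chromosome lengths. The main TSS is the start of most transcripts, the farthest upstream among ties. Pericentric means the 5 Mb at the centromeric end of 2L, 3L, 3R or X. Failing promoter candidates overlap no thresholded list. The 6-mers were ranked by the ratio of their shares, among those in at least 5% of peaks. Values were computed with pandas 2.3.3. Assignment, overlap and 6-mer ranking were tested on simulated data. The genes, role lists and motifs were chosen with earlier results of these data known. Every gene with a peak could be named, with values in each list for the 12 highest and for the first and last of each role list, and genes without a peak where a role list holds them. The names of genes without a peak outside the lists were added after their values were seen, as were the replicate-only peaks. The values of 1 of the 73 genes are counted in the totals but not reported here by name. Role lists came from general knowledge, and Fis1 and Ir102a in them are not among the 73 genes. With 1 group and no test possible over samples, shares and medians are given side by side. The alternatives were the conservative list, each single replicate, windows of 200 and 1000 bp, the nearest TSS only, the stronger peaks, all 80 genes, stricter overlap, and wider and flanking sequence windows.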

Additional observations from a re-analysis of the deposited data

How the results depend on the processing

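The count of genes with a peak, 38, ranged from 35 with a window of 200 bp to 44 with one of 1000 bp, and was 38 in the conservative list. Without one replicate it was 38 to 40. The share of summits upstream of the TSS stayed from 92.1 to 94.7%. The 89.9% of the other arms was computed for the combined list and the 500 bp window only. The number of summits counted changed with the setting. Both replicates overlapped 34 of 35 with a window of 200 bp and 41 of 44 with one of 1000 bp. It was 37 of 40 with the nearest TSS only, 36 of 36 among the stronger peaks and 43 of 46 over all 80 genes. Each stricter overlap gave 36 of 40. The median signal at chromosome 4 summits, 1377 in the combined list, was 1893 with a window of 200 bp, 1262 with one of 1000 bp and 1665 among peaks above the median of the list. Without one replicate it was 670 to 696, on the scale of the replicate lists. The difference from other promoter summits was 1723, 1104 and 1382 under those 3 settings and 571 to 584 without one replicate. The share of summits with CGATA was 57.5% with 100 bp each side and 17.5% in the flanks, and that with any of the 5 6-mers was 77.5% with 100 bp each side. Longer windows hold more matches by construction. The conservative list gave 38 genes with a peak and the nearest TSS only gave 36. The median signal was 1377 under both, and the difference from other promoter summits was 1207 and 1213. No paired analysis was possible because the series has 1 group. Unknown depth limits the statements on genes without an entry, whose signal could lie below what the lists record.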

Other observations

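Of the 60 combined peaks on chromosome 4, 20 lay at no promoter of the 73 genes, and 6 of these were at promoters of genes left out. The strongest of the other 14 had a signal of 1718, in intergenic sequence 3696 bp downstream of the RpS3A start, and overlapped peaks of both replicates. The peak 749 bp upstream of ey (1144) and one 86 bp downstream of the start of the noncoding gene lncRNA:CR44440, near PlexB (1019), were the next. Summits of 5 of the 14 lay inside transposable element copies, of the families Cr1a, F and INE-1, with signals from 169 to 596. Cadps held 2 peaks in introns, 28691 bp (521) and 1670 bp (228) downstream of its nearest TSS. A peak of 300 lay 49 bp upstream of the antisense RNA gene asRNA:CR44030, upstream of 4E-T. Genes without a promoter peak but with one inside an intron were Kif3C 682 bp (169) and JYalpha 742 bp (246) downstream of a TSS. These peaks were listed after their values were seen.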
